A study of Mus musculus with 38 samples.

Results

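Stitched H3K27ac clusters are stretches of the genome in which called peaks of the active-chromatin mark H3K27ac lie close together and add up to a large acetylated width. In each of the 5 H3K27ac lists, peaks with gaps under 12500 bp were joined, and groups of at least 3 peaks with a summed peak width of at least 10000 bp were kept. This left 1181 clusters of 82200 stitched groups, namely 230 (D0), 275 (W1), 315 (W2), 269 (W6) and 92 (W12). Because clusters were selected on the width and spacing of the called H3K27ac peaks, the number, width and overlap of clusters are given as a description, with no test.

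The lists came from epidermal stem cells (EpdSCs) of male K14rtTA; TRE-myc-Sox9 mice, in which the Krt14 promoter drives rtTA in epithelial cells and doxycycline (DOX) then induces MYC-tagged SOX9, a transcription factor of hair follicle stem cells. Cells were sorted from back skin by surface markers (negative for CD31, CD45, CD117, CD140a and CD34, high for CD49f and Ly6A) at D0, when the transgenes were present but not induced, and at W1, W2, W6 and W12, each name giving the weeks of DOX. Widths listed after a D0 value are for W1, W2, W6 and W12 in that order. DOX began at P21 for W1 to W6 animals, and no list came from uninduced animals of those ages. Weeks of DOX and age therefore cannot be told apart. W12 cells came from P0 skin that had healed on immunocompromised Nude females before induction, so that time and grafting cannot be told apart at W12. H3K27ac was measured by MINT-ChIP, which barcodes the chromatin of each sample and pools samples for 1 immunoprecipitation, from chromatin cut with high or low amounts of micrococcal nuclease (MNase), each digestion giving a library. Both libraries of D0 and of W1 held replicates 1 and 2, and both of W12 held its replicates 1 and 2 together with replicate 1 of W2, separated by barcode. Replicate 2 of W2 and each of the 2 replicates of W6 had a pair of libraries to themselves. There is 1 deposited list per time point, pooled over replicates, so no spread between replicates or digestions could be had and no difference between lists was tested.

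H3K27ac marks active enhancers and promoters, and H3K4me1 marks primed as well as active enhancers. Broad domains made of many acetylated elements are often called super-enhancers when they are ranked by signal, and in many tissues they lie at genes that define the cell type. In the epidermis such genes include the factors TRP63, GATA3 and TFAP2A and the keratins and junction proteins that hold basal cells together. The clusters described here were set by peak width and spacing and not by ranked signal, and are therefore not called super-enhancers.

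Several sequences show what distal peaks inside clusters look like at the level of bases. Each is 300 bases around the summit of the strongest peak of its cluster that lay over 2500 bp from a start site, was less than 25% repeat-masked and fitted its class. For the constant clusters at Cdh1 and Pkp1 the window was covered by peaks in all 5 lists. For the clusters called only at D0, at Tnfaip3 and Tgfbr2, no base of the window was in a W2 peak, although all 300 bases of both windows were in W6 peaks. The Tnfaip3 window was also covered at W1, and 208 bases of the Tgfbr2 window were in a W12 peak. For the gained clusters at Actn1, Fto and Runx1 no base was in a D0 peak and all were in peaks at W1, W2 and W6, while at W12 the Actn1 window had none, the Fto window 185 and the Runx1 window 300. These loci were picked after their values were seen. Letters come from RefSeq's GRCm38.p6 on the + strand, and capitals mark matches on either strand to any of 4 motifs. The letters searched were ACAANG for the SOX family. For AP1 the search used TGANTCA. For GATA factors it used AGATAA. For RUNX factors it used TGTGGT.
Cdh1: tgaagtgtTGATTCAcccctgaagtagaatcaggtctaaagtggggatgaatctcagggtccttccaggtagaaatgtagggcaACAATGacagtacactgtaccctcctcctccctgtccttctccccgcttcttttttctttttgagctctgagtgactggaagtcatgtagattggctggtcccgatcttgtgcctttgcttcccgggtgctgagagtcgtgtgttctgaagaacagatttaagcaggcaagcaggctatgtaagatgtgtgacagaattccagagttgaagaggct
Pkp1: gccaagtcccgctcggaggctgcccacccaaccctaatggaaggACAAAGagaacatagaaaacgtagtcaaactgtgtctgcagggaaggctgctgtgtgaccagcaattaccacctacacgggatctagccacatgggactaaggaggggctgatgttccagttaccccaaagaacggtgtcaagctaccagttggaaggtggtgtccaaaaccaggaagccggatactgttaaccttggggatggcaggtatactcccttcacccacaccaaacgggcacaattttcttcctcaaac
Tnfaip3: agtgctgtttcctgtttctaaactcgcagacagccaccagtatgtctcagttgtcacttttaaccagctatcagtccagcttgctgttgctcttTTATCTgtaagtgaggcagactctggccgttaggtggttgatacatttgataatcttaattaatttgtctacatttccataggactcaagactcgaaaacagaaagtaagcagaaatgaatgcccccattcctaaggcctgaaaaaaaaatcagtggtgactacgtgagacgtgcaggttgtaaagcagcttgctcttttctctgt
Tgfbr2: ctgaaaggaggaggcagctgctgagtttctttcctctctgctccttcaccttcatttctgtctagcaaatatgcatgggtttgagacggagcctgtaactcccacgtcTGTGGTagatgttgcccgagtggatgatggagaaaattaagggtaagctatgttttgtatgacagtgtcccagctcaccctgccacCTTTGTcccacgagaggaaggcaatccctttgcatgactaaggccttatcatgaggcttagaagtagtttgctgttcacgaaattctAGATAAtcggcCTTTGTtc
Actn1: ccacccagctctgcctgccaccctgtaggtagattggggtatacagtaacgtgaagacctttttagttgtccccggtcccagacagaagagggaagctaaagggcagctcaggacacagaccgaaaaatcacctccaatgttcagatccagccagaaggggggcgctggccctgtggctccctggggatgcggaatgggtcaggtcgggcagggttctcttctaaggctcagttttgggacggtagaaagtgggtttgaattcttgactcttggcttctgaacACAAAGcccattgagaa
Fto: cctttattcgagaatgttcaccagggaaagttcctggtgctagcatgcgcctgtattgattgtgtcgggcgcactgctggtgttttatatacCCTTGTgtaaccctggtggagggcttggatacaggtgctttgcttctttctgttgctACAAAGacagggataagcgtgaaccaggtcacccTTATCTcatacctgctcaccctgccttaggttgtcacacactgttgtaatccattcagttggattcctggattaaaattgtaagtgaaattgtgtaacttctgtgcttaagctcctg
Runx1: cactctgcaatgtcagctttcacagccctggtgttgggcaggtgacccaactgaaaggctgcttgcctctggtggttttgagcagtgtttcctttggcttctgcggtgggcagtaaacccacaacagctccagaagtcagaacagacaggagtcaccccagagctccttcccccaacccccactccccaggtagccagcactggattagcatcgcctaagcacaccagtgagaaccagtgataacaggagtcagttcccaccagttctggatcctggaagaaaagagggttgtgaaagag
The Cdh1, Pkp1, Actn1, Fto and Runx1 windows were intronic, at chr8:106622766-106623065, chr1:135891309-135891608, chr12:80223328-80223627, chr8:91384314-91384613 and chr16:92621105-92621404 in that order. The Tnfaip3 window (chr10:19062724-19063023) and the Tgfbr2 window (chr9:116207974-116208273) were intergenic. The Actn1 and Fto windows held 1 and 2 SOX matches, and the Runx1 window held no match to any of the 4 motifs. All 300 bases of every window were within H3K4me1 domains in all 5 lists, including the windows without H3K27ac at D0.

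Clusters held a small part of the peaks and a larger part of the acetylated width. At D0, 2743 of 30268 peaks (9.06%) and 13.3% of the covered width were in clusters, and at W2 these shares were 10.7% and 15.7%. At W12 only 3.41% of 33985 peaks and 5.57% of the width were in clusters. The median cluster had 11 peaks and a summed width of 13165 bp over a span of 45482 bp at D0, and 9 peaks, 13744 bp and 41271 bp at W2. At D0 the median peak inside a cluster was 809 bp wide and the median peak outside 623 bp, while the median fold enrichment was 6.0 in both. A start site of a protein-coding gene lay within 187 of the 230 D0 clusters (81.3%, exact 95% confidence interval 75.7 to 86.1%) and within 64 of the 92 W12 clusters (69.6%, 59.1 to 78.7%). Peaks in clusters were more often distal than other peaks, with 70.0% (68.2 to 71.7%) against 55.7% (55.1 to 56.3%) at D0 and 72.8% (71.2 to 74.4%) against 55.1% (54.5 to 55.7%) at W2. These intervals, like all others given, cover counting error only.

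The most and the fewest clusters were in the lists with the widest and the narrowest peaks. The W2 list had the widest peaks (median 821 bp) and the most clusters, the W12 list the narrowest peaks (476 bp) and the fewest clusters, and in the other lists the median was 635 bp (D0), 642 bp (W1) and 715 bp (W6). The order did not hold throughout, since W1 had narrower peaks than W6 but more clusters (275 against 269). The genome-wide background pileup, which rises with depth, was 0.501, 0.299, 0.425, 0.677 and 0.412 from D0 to W12 and did not follow the number of clusters. The part of peak width in the number of clusters was not tested. Taking the 92 widest clusters of every list moved the narrowest cluster to 14918 bp (D0), 15787 bp (W1), 16733 bp (W2) and 16269 bp (W6).

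**Figure D1:**
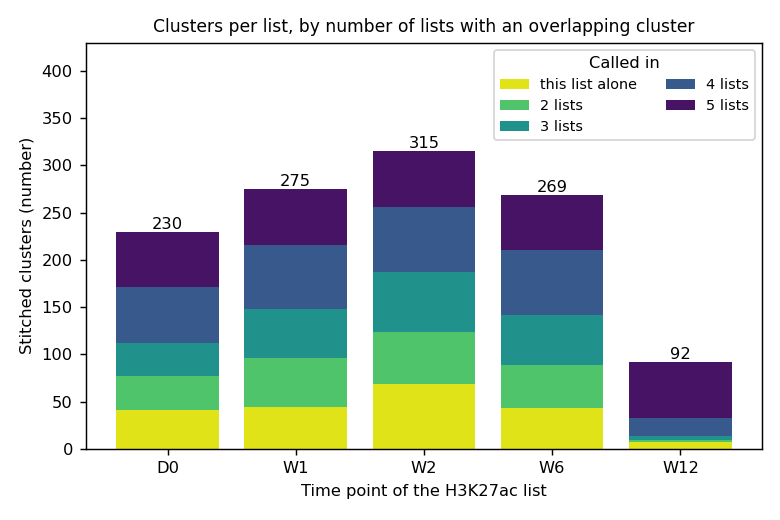
Number of stitched H3K27ac clusters (y axis) in each list (x axis), coloured by how many of the 5 lists had an overlapping cluster. The W2 list had 315 clusters and the W12 list 92, of which 59 were D0 clusters or their counterparts called in all 5 lists.

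The width threshold separated near-equal groups. At D0 the narrowest clusters kept lay at Tcim (10015 bp in 8 peaks) and AA986860 (10030 bp), and the widest groups left out were at Kremen1 (9985 bp) and at Inpp5k, Myo1c and Crk (9926 bp). At W2 Jag1 (10055 bp in 3 peaks) was just inside and Iqgap1 (9992 bp) just outside. The requirement of 3 peaks left out 1 group of at least 10000 bp in each of the D0, W1 and W12 lists, 4 such groups at W2 and 3 at W6. Among these was a block at the start of chromosome 9 with clone-based gene models such as Gm10722, which was 1 peak of 38371 bp at D0 and 11 peaks at W1, and so counted as a cluster at W1 alone. It held no H3K4me1 domain in any of the 5 skin lists, although the culture lists covered between 79.2% and 97.3% of its W1 span.

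The identity of the sorted cells was checked at start sites. An H3K27ac peak lay within 1000 bp of a start site of Krt5, Krt14 and Krt10 in all 5 lists and of Krt15 in every list except W12, and no peak lay at Krt1 or Krt2. Of 13 markers of immune, endothelial, melanocyte and fibroblast cells none had such a peak at D0, W1 or W2, and Pecam1 and Mitf had one at W6 and W12. None of the 13 had a start site in a cluster of any list.

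To compare clusters over time, a cluster was taken as called in another list when any cluster there overlapped it. The clusters of the 5 lists merged into 495 loci. Of these, 204 (41.2%) were called in 1 list, 93 in 2, 69 in 3, 70 in 4 and 59 (11.9%) in all 5. The most frequent combinations were W2 alone with 69 loci, all lists with 59, all lists except W12 with 51, W1 alone with 44, W6 alone with 43 and D0 alone with 41. Of the 230 D0 clusters, 152 overlapped a cluster at W1 (66.1%, 59.6 to 72.2%), 152 at W2, 147 at W6 (63.9%, 57.3 to 70.1%) and 68 at W12 (29.6%, 23.7 to 35.9%). In the other direction, 68 of the 92 W12 clusters overlapped a D0 cluster (73.9%, 63.7 to 82.5%) and 82 overlapped a W2 cluster (89.1%, 80.9 to 94.7%). Clusters of W2 were shared most with W1, at 63.2%, and W6, at 60.95%.

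**Figure D2:**
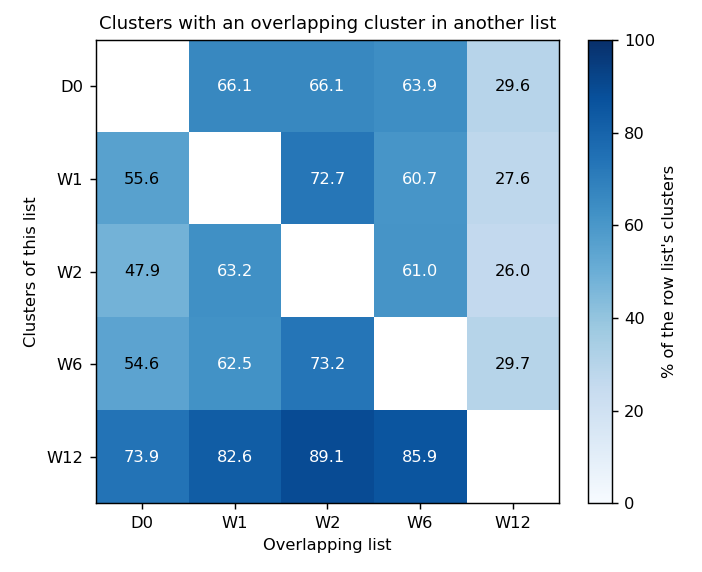
Share of the clusters of 1 list (rows) that overlapped a cluster of another list (columns), in percent. Shares in the W12 column lie between 26.0% and 29.7%, and those in the W12 row between 73.9% and 89.1%.

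Gain against D0 was largest in number at W2, the list with the most clusters, and loss at W12, the list with the fewest. These numbers depend on the length of the lists. Of the W2 clusters, 164 of 315 (52.1%, 46.4 to 57.7%) had no D0 cluster, and of the D0 clusters, 78 of 230 (33.9%, 27.8 to 40.4%) had no W2 cluster. The number without a counterpart was also 78 at W1, and it was 83 at W6 and 162 at W12. Over all groups of 3 or more peaks, whatever their width, 37.6% at W2 had no such group at D0 and 41.8% at D0 had none at W2. The rule fixed these calls, so nothing is read from their difference from the background. With the 92 widest clusters of each list, 41 were without a W2 counterpart and 41 without a D0 counterpart, equal numbers that follow from lists of 1 length with 1-to-1 overlap. Without a D0 cluster were also 122 clusters at W1, 122 at W6 and 24 at W12. The share over all groups was taken for the D0 and W2 pair only. Gains and losses at W1, W6 and W12, and the counts of constant and D0-only clusters below, therefore stand without such a background. Of the 164 clusters gained at W2, 70 (42.7%) were called at W1, 66 (40.2%) at W6 and 17 (10.4%) at W12, and 69 were called at W2 alone.

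A cluster missing from a list was seldom without acetylation there. No D0 cluster lacked H3K27ac bases in any later list. In the 41 clusters called at D0 only, the median share of D0 bases still under peaks was 65.95% (W1), 59.4% (W2), 52.7% (W6) and 41.5% (W12). In 10 of the 41, at least 1 later list still had 10000 bp or more within the span, and in 4 every later list was under 50% of the D0 bases. Over all 204 clusters called in 1 list, another list had at least 10000 bp in the span in 46, and in 15 the highest other list was under 50% of the cluster's own bases. Being called in a single list therefore covered both a change in acetylated width and the splitting of a group by a gap or its fall just below 10000 bp.

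The constant clusters were the 59 D0 clusters (25.7%, 20.1 to 31.8%) with an overlapping cluster at all 4 later time points, and they took 7 of the 10 widest D0 clusters. The widest covered Hoxb2 to Hoxb8, genes of positional identity, on chromosome 11 (chr11:96283034-96355062), with 42733 bp of peaks at D0 and then 53667, 59478, 52341 and 33903 bp. The same region was the widest cluster of the W1 list, at 54444 bp, and, extended over Hoxb9, of the W2 and W12 lists, at 60587 and 39460 bp. Next came a cluster overlapping Frmd8, with 41750 bp at D0, and one at Pkp1, which encodes the desmosomal plaque protein plakophilin 1. The cluster overlapping Frmd8 held no protein-coding start site, and 7 of its 15 peaks were distal. Non-coding genes were not used for naming, so Frmd8 need not be the gene it belongs to. Pkp1 (chr1:135856849-135926463) had 35988 bp at D0 and then 35047, 33423, 38842 and 23534 bp, so that the first 4 lists were close and W12 was lowest. The other 5 of the 8 widest were at 2010111I01Rik and Fancc, a DNA repair gene (34084 bp at D0), at the zinc-finger factor gene Bcl11b (31916 bp), at Slk, Col17a1 and Sfr1 (31572 bp), at Actn4, Eif3k and Map4k1 (30663 bp) and at the myosin gene Myo1e (29233 bp). The 2010111I01Rik and Fancc region was the widest cluster at W6, with 59896 bp.

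Within constant clusters the median acetylated width was nearly level until W6 and lower at W12. The class requires a cluster in every list, so the width kept is in part set by the rule. Single clusters ranged from 62.3 to 211% of their D0 bases at W2 and from 52.1 to 192% at W6. The median share of D0 bases was 104.9% (W1), 105.03% (W2), 108.2% (W6) and 71.6% (W12), while the whole lists covered 107.5%, 117.5%, 111.6% and 84.6% of the D0 width. Col17a1, whose product is a hemidesmosomal collagen of basal cells, went from 31572 bp at D0 through 22766 bp at W1 and 30082 bp at W2 to 16434 bp at W6 and 16948 bp at W12. Bcl11b stayed between 29949 and 33494 bp until W6 and had 11872 bp at W12. Foxn3, a forkhead factor gene, had the widest D0 cluster, with 48 peaks and 45170 bp, and its span held 47189, 22604, 15314 and 13316 bp in the later lists. It was called in every list except W6.

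The clusters called only at D0 numbered 41 (17.8%, 13.1 to 23.4%). The widest was at Hip1r and Vps37b (chr5:123973697-124050591), with 22501 bp in 17 peaks at D0, then 12814, 13090, 9151 and 6980 bp at W1, W2, W6 and W12. Il1r1 and Il1rl2, a locus of interleukin receptors (chr1:40266314-40360518), had 21943 bp at D0 and 17046, 11076, 7844 and 11809 bp later. Tnfaip3, which encodes an inhibitor of NF-κB signalling (chr10:19002358-19066111), had 19876 bp at D0 and 12145, 8321, 4605 and 3917 bp. At these loci D0 was the highest list, and at Hip1r, Il1r1 and Tnfaip3 at least 1 later list kept more than 10000 bp.

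The next widest loci of this class differed in how far they fell. Tgfbr2, a TGF-β receptor gene (chr9:116150486-116224628), had 14918 bp at D0 and 8364, 4234, 6504 and 7939 bp at W1, W2, W6 and W12. Rasa3, a Ras GTPase-activating protein gene (chr8:13623454-13678163), had 14788 bp at D0, 10488 bp at W1 and between 3041 and 3251 bp at the last 3 time points. The span 41185 bp from Sik1 (chr17:31896989-31941430), a kinase gene, went from 14491 bp to 8100, 4720, 3658 and 6729 bp. By contrast, Dusp1, a MAP kinase phosphatase gene, had 14601 bp at D0 and still 11199, 11403 and 10987 bp at W1, W2 and W6. Amotl1, which encodes a junction protein, had 17102 bp at D0 and 12873, 10460, 8540 and 8269 bp later.

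Narrower clusters of the class were at Atf3, Nod2, Asap1, Actb, Ets1, Grhl3, Gja1, Thbs1, Slc2a1 and Itga6, named here after their values were seen. Atf3, a stress-induced AP1-family factor, had 13605 bp at D0, between 5174 and 6608 bp at W1 to W6 and 351 bp at W12. Asap1 fell furthest by W6 among these, from 12055 bp to 396 bp. Ets1 had 10671 bp at D0, 3083 bp at W2 and 11707 bp at W12, where it was nevertheless not called because the peaks were split by gaps. Itga6, the gene of the integrin CD49f by which these cells were sorted, had 10059 bp at D0, just above the threshold, and 7333 bp at W6.

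Lasting gained clusters were 16 W2 clusters (5.08%, 2.93 to 8.12%) without a D0 cluster and with one at both W6 and W12. Of these, 12 were already called at W1. In 5 of the 16 the D0 list had at least 10000 bp in the span without making a cluster, and in 9 it had under 50% of the W2 bases. Median H3K27ac in the span of the 16 was 8233 bp at D0 and then 12465, 16954, 16069 and 11831 bp.

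The largest rise from D0 among the 8 widest was at Actn1, which encodes an actin-crosslinking protein of cell-matrix contacts. Its cluster (chr12:80206598-80292023) had 1173 bp in the D0 list and then 9134, 20011, 21995 and 11554 bp. Casq2 and Vangl1, the second a gene of planar cell polarity (chr3:102133907-102213486), had 7032 bp at D0 and 18756, 22777, 26626 and 18129 bp later. Both had every later list above D0, with the highest value at W6. Tmem45a (chr16:56796228-56898185) had 13555 bp at D0 and then 25548, 24688, 23067 and 13441 bp, so that W12 was back at the D0 value. Kmt2e, a gene of a chromatin regulator (chr5:23386465-23436863), had 11015 bp at D0 and 21806, 22813, 19321 and 15717 bp.

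A pair of the 8 widest were named in part by Fgfr2, a fibroblast growth factor receptor gene, whose annotated model overlapped both. Their spans lie far apart on the same chromosome, so Fgfr2 need not be the gene that either belongs to. One also covered Fam53b (chr7:132751554-132815930) and had 12508 bp at D0 and 21222, 21276, 18937 and 12918 bp later. The other covered Tacc2 (chr7:130609385-130677844) and had 11323, 14415, 17266, 21003 and 15291 bp. Rin2 had 8246 bp at D0 and 17834 bp at W2, and Ppp1r14c had 8220 bp and 17175 bp. Among the narrower members, the cluster at Krt6a and Krt5 (chr15:101686171-101722857), keratins of stressed and of basal epidermis, had 9723 bp at D0 and then 9572, 15490, 15729 and 10550 bp. Macf1, Fto, Vmp1 and Osbpl3 had 3714, 4677, 3795 and 2243 bp at D0 and 16733, 15855, 13344 and 11090 bp at W2.

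**Figure D3:**
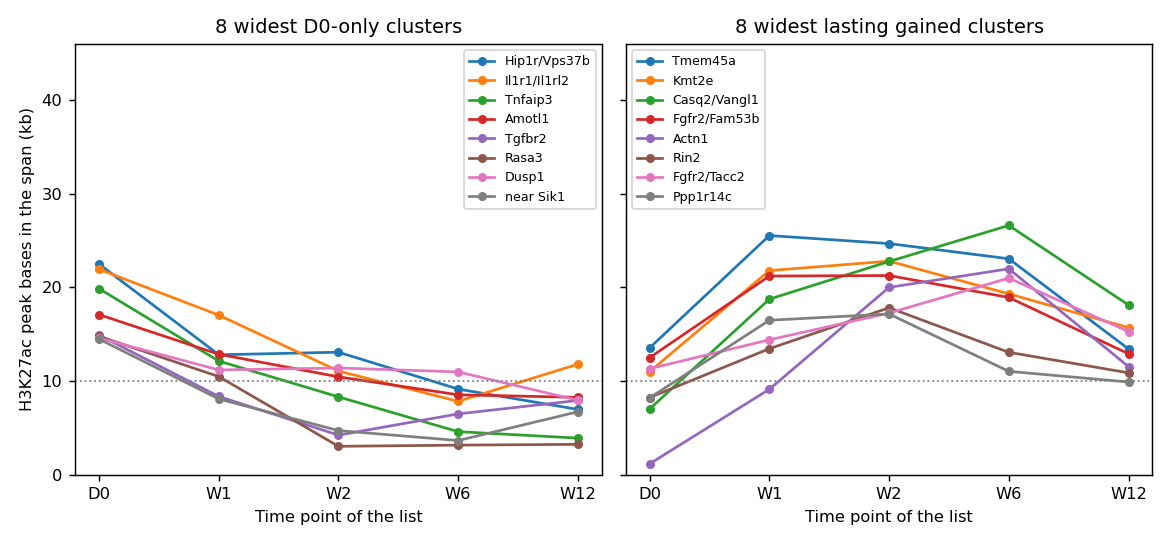
H3K27ac peak bases within the cluster span (y axis, kb) in each list (x axis) for the 8 widest clusters called only at D0 (left) and the 8 widest lasting gained clusters (right), 1 line per cluster, with the 10 kb threshold dotted. Actn1 starts at 1173 bp and reaches 21995 bp at W6, whereas Rasa3 goes from 14788 bp to 3041 bp at W2.

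A larger group of 66 clusters was gained at W2 and called at W6, with or without W12. Its widest members were at Kank1 with 33934 bp at W2, Susd6 with 30008 bp and Moxd1 with 24997 bp. Runx1, a transcription factor gene active in hair follicle stem cells and in skin tumours, was one of them (chr16:92580667-92631709). The Runx1 span held 2431 bp at D0 and then 10073, 16921, 10286 and 6001 bp, and a single W2 peak of 10213 bp made up most of it. Nfib, another factor gene of hair follicle stem cells, had 8181 bp at D0 and 14653 bp at W2. Id1, a target of BMP signalling, had 9262 bp at D0, 6344 bp at W1 and 15913 bp at W2.

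**Figure D4:**
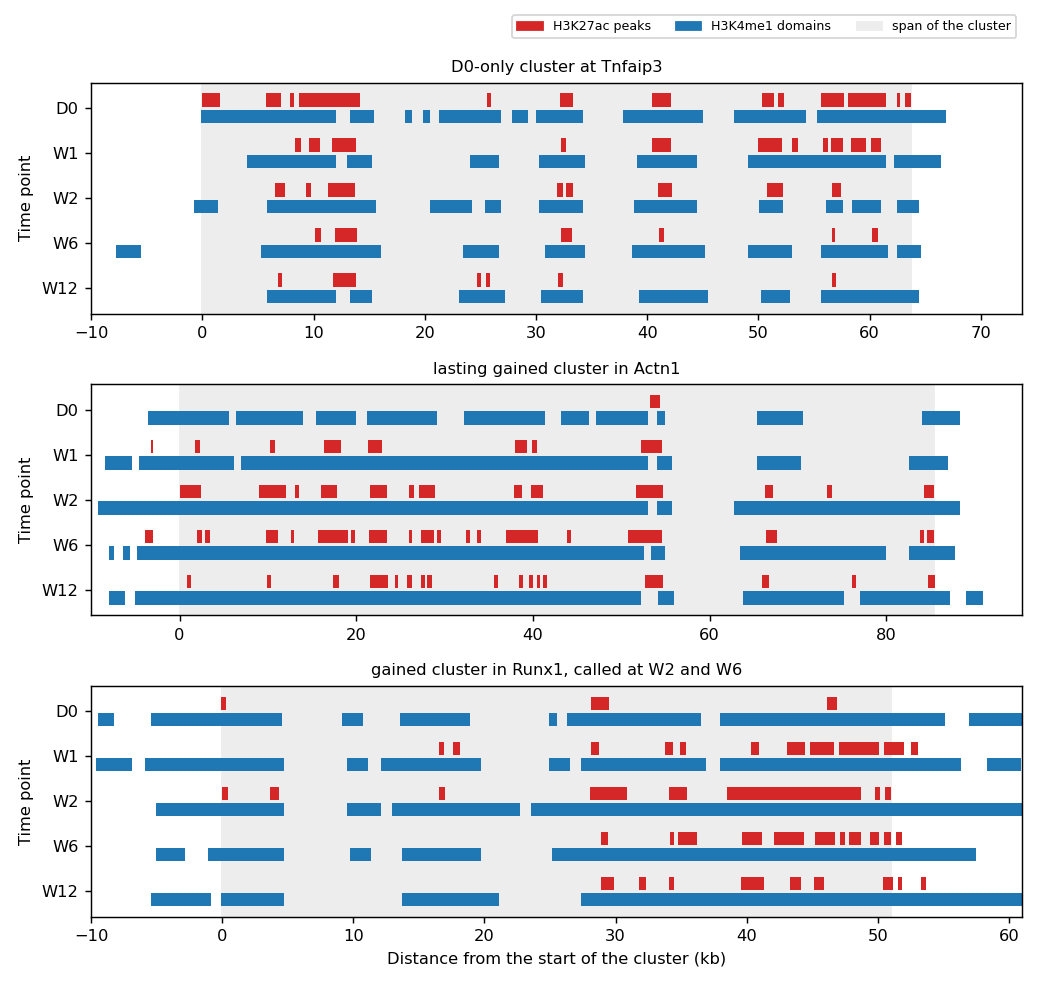
H3K27ac peaks (red) and H3K4me1 domains (blue) by distance from the cluster start (x axis, kb) in the 5 lists (y axis) at Tnfaip3, Actn1 and Runx1, with the cluster span shaded. In Actn1 the D0 list had 1173 bp of H3K27ac peaks but H3K4me1 over 60.4% of the span.

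Clusters called in a single later list mixed differences in width with splits. At W1 alone, Ippk and Cenpp had 21112 bp against 3176 bp at D0 and 13555 bp at W2, and Glod4, Mrm3 and Nxn had 16777 bp against 11500 bp at D0. At W2 alone, Acpp had 16744 bp and between 4162 and 8450 bp elsewhere, Ppfibp2 had 15771 bp and Clic4 15350 bp. At W6 alone, Cebpb and Tmem189 had 21743 bp, against 7476 bp at D0 and 14583 bp at W2, and Zbtb7c had 16269 bp against at most 8210 bp elsewhere. Ezr and Sytl3 were called at W6 alone with 19290 bp although the D0 list had 20421 bp in the same span. Of the 7 clusters of W12 alone, the widest were in Prkch with 20344 bp (12620 bp at D0), 278237 bp from Klf5 with 13368 bp (16554 bp at D0) and at Mapk6 and Leo1 with 12506 bp (5496 bp at D0). The W12 cluster near Klf5 thus had fewer bases than D0, W1, W2 and W6 and was whole only because its peaks lay closer together.

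H3K4me1, which the rule did not use, was then read in the same spans. The H3K4me1 lists covered between 9.67% and 11.4% of the genome, and a median of 88.98% of the span of D0 clusters at D0 and 88.6% of W2 clusters at W2. Groups of 3 or more H3K27ac peaks under 10000 bp had medians of 87.5% at D0 and 82.7% at W2. In constant clusters the median was 89.4% (quartiles 84.1 and 93.9%) at D0, 88.8% at W2, 90.3% at W6 and 89.2% at W12. In clusters called only at D0 it was 86.3% (74.9 and 95.4%) at D0, then 79.9%, 70.8% (57.6 and 85.9%), 72.5% and 73.9%. In lasting gained clusters it was 83.6% (74.4 and 89.0%) at D0, then 85.9%, 89.6% (86.7 and 91.5%), 94.3% and 88.1%.

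Most clusters called only at D0 had less H3K4me1 at W2 than at D0. Of the 41, 34 had less, 5 had more (12.2%, 4.08 to 26.2%) and 2 were equal, with a median difference of -11.8 percentage points. Among all D0 clusters 66 of 230 had more (28.7%, 22.9 to 35.0%), and among D0 groups of 3 or more peaks under 10000 bp the share was 23.8%. The interval for the 41 overlaps both, so a share below theirs was not separated by counting error. Equal coverage counted as not more, and of the 2884 smaller D0 groups 1614 had less and 584 were equal. Other settings called other sets of clusters at D0 only, which need not be among the 41. The share with more H3K4me1 was 36.4% of the 11 called with a threshold of 15000 bp, 35.0% of the 20 called among the 92 widest of each list and 27.8% of the 18 called with gaps under 5000 bp. The whole W2 list covered 95.1% of the H3K4me1 width at D0. At Tgfbr2 covered H3K4me1 went from 82.7% to 49.0%, at Rasa3 from 91.2% to 53.9% and at Il1r1 and Il1rl2 from 84.3% to 54.6%, while Dusp1 stayed at 80.9% and 80.4% and Grhl3 was fully covered in all lists.

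Most gained clusters had more H3K4me1 at W2. Of the 16 lasting gained clusters 12 had more at W2 than at D0 (75%, 47.6 to 92.7%), 3 had less and 1 was equal, and of all 164 gained at W2 there were 102 (62.2%, 54.3 to 69.6%). The same share was 52.7% (47.0 to 58.3%) of all W2 clusters and 42.5% of W2 groups of 3 or more peaks under 10000 bp. The interval for the 164 lies above that of the smaller groups (40.5 to 44.4%). However, the 164 were chosen for having no D0 cluster, and the smaller groups were not chosen by absence at D0. The part of that choice in the higher share was not tested. The interval for the 16 contains the share of all W2 clusters. At Actn1 coverage went from 60.4% at D0 to 90.6% at W2, at Vmp1 from 59.6% to 90.9%, at Osbpl3 from 51.7% to 88.9% and at Krt6a and Krt5 from 72.7% to 95.6%. Of the 16, the 3 with less were Tmem45a (88.6% to 82.7%), the cluster overlapping Chd2 (74.95% to 67.1%) and that near Chd2 (94.96% to 82.1%). The median difference between W2 and D0 was 2.26 percentage points in the 164 and 4.66 in the 16. At W12, 70 of the 164 had more than at D0 (42.7%) and 85 had less, with a median difference of -1.04. Median coverage was already above 80% at D0, so most of the span of gained clusters carried H3K4me1 before they were called. Clusters share the same pair of H3K4me1 lists and are not replicates.

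**Figure D5:**
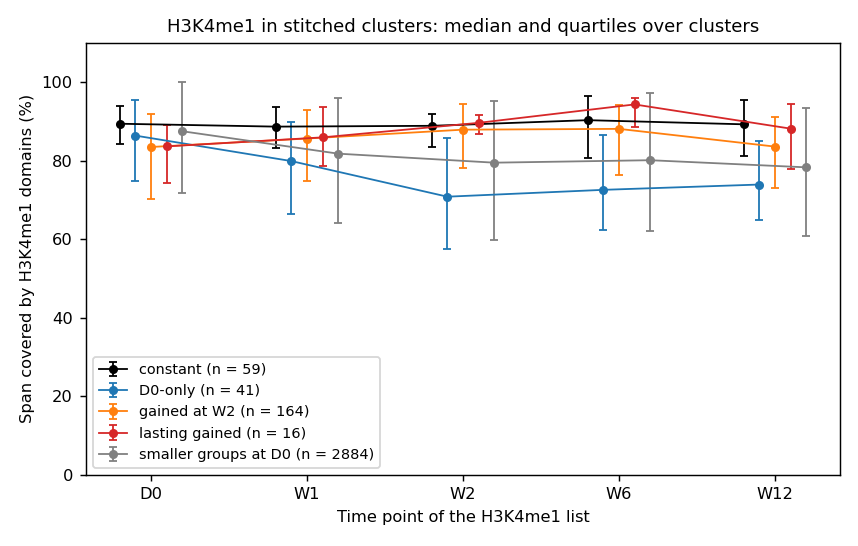
Share of the cluster span covered by H3K4me1 domains (y axis, %) in each list (x axis), as the median with quartiles over clusters of a class. Clusters called only at D0 go from 86.3% to 70.8% at W2, and lasting gained clusters from 83.6% to 89.6%.

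Cultured EpdSCs gave a measure from other cells. H3K4me1 domains were available without DOX and with DOX-induced SOX9 in 3 forms, namely the wild type (WT), a form without the DNA-binding HMG domain (ΔHMG) and a form without the transactivation domain (ΔTA). The only list without DOX was that of the WT cells, and all 3 forms were set against it. For ΔHMG and ΔTA the form of SOX9 therefore cannot be told apart from the transduced cells that carried it. Culture domains covered less of the spans, with medians between 19.9% and 33.0% over the classes of clusters, and their lists had another layout, so levels are not set against skin. Of the 164 clusters gained at W2 in skin, 111 had more H3K4me1 with WT SOX9 than without DOX (67.7%, 59.9 to 74.8%), against 58.2% of W2 groups of 3 or more peaks under 10000 bp (56.3 to 60.2%). With ΔHMG-SOX9 the number was 49 (29.9%, 23.0 to 37.5%), against 37.6% of the smaller groups, and with ΔTA-SOX9 60 (36.6%, 29.2 to 44.5%), against 44.1%. The median difference from no DOX in these 164 was 3.13 percentage points with WT, -2.34 with ΔHMG and -1.33 with ΔTA. Of the 16 lasting gained clusters 13 had more with WT SOX9 (81.3%, 54.4 to 95.96%), 4 with ΔHMG and 7 with ΔTA. Of the 41 clusters called only at D0, 17 had more with WT SOX9 (41.5%, 26.3 to 57.9%), against 48.2% of the smaller D0 groups. With ΔHMG 13 had more (31.7%, 18.1 to 48.1%), against 37.3% of the smaller groups. With ΔTA 23 had more (56.1%, 39.7 to 71.5%), against 42.4%.

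Gene lists of skin biology were counted by start sites inside clusters. Widths given for listed genes are of the cluster called in each list, whose extent could differ between lists, unless a span is named. Over all 21938 protein-coding genes, those with a start site in a cluster made up 1.72% (D0), 1.62% (W1), 1.98% (W2), 2.07% (W6) and 0.497% (W12). Of 145 listed genes 40 did so in at least 1 list, namely 31, 22, 27, 29 and 17 from D0 to W12. The genes were chosen with earlier results of these data known, and many are known to be active in epidermis, so the excess over the background is a description.

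Some epidermal transcription factor and adhesion genes were in clusters of every list. Among 16 epidermal factors, 8, 6, 4, 8 and 4 were in clusters from D0 to W12, and Trp63, Gata3 and Tfap2a were in clusters of all 5 lists. The Gata3 cluster measured 21367 bp at D0 and 15192 bp at W12. That of Trp63, the master factor of stratified epithelia, measured 15891 bp at D0 and then 16078, 35849, 15940 and 15697 bp. The W2 cluster of Trp63 reached beyond the D0 span, which held 16078, 24382, 14617 and 14748 bp in the later lists. Grhl3 was in a cluster at D0 only (10519 bp), Grhl1 at D0 and W1, Klf5 in every list except W2 and W12, and Ovol1 at D0 and W6. Of 9 desmosome genes 4 were in clusters at each of D0, W1, W2 and W6, namely Dsp, Perp, Pkp1 and Jup. Dsg3 was in a cluster at W12 alone (10080 bp), although its span held more bases in the other lists (10473, 12357, 13986 and 12440 bp from D0 to W6). Of 11 hemidesmosome and basement membrane genes Itgb4, Col17a1 and Cd44 were in clusters of all 5 lists, Plec in every list except W12, Dst at D0 and W6 and Itga3 at W2. The Cd44 cluster, of a hyaluronan receptor gene, measured 13245 bp at D0 and then 10539, 26440, 26086 and 10452 bp. The W2 and W6 clusters reached beyond the D0 span, which held 10209, 13211, 15572 and 10452 bp in the later lists.

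AP1 factors, which bind TGANTCA and respond to growth and stress signals, were the list with the largest share in clusters at D0. Of 8 members 6 were in clusters at D0, namely Fos, Fosb, Fosl1, Fosl2, Junb and Atf3, and 3 at W1, 3 at W2, 5 at W6 and none at W12. Fosl2 had 12822, 14908, 17140 and 18719 bp from D0 to W6, and Fosb 13394 bp at D0 and 11278 bp at W6. These clusters were among the narrower ones: within the 92 widest of each list, AP1 members numbered 1, 0, 1, 1 and 0 from D0 to W12. At W12, 7 of the 8 still had an H3K27ac peak within 1000 bp of a start site.

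Other lists had few members. Nfix, a factor gene of hair follicle stem cells, was in a cluster of all 5 lists, with 26539 bp at D0, 36581 bp at W1 and 13524 bp at W12, and Nfib in those of W1 (13677 bp), W2 (14653 bp) and W6 (12703 bp), while the other 8 genes of that list, Sox9 included, were in none. Of the keratins, Krt5 and Krt6a shared clusters at W2, W6 and W12, Krt17 was in clusters of every list except W1, and Krt16 at D0. The Notch ligand gene Jag1 was in clusters at D0 (15654 bp), W1 and W2 (10055 bp), and the Notch target Hes1 at D0 and W2. Egfr, the EGF receptor gene, was in clusters at D0 (29457 bp), W1 (12362 bp) and W2 (21803 bp), and Errfi1, its feedback inhibitor, at W2. Of 13 TGF-β and BMP genes, Tgfbr2 was in a cluster at D0 and Id1 at W2 and W6, and of 9 mesenchymal and EMT genes only Cdh1, the gene of E-cadherin, was in a cluster, in all 5 lists. No member of the RUNX list (4 genes), the Hedgehog list (9) or the list of WNT effectors (10) had a start site in a cluster, the Runx1 cluster covering the 3′ part of the gene and sequence past its end.

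Motif letters in the windows of 300 bp at summits differed little between classes. Of distal peaks in clusters gained at W2, 53.3% (50.3 to 56.3%, 1111 windows) held ACAANG, against 50.7% (49.96 to 51.5%) of all distal W2 peaks. The share was 47.9% (42.4 to 53.4%) in clusters called only at D0 and 48.8% over all distal D0 peaks. The SOX letters are short and occur in about as many windows of every class, and each interval overlaps that of its list. The GATA letters were in 16.8% (14.7 to 19.2%) of distal peaks in clusters gained at W2 and in 15.4% of all distal W2 peaks, and in 14.97% of those in clusters called only at D0 and 14.4% of all distal D0 peaks. The RUNX letters were in 22.2% and 20.9% in the first pair and in 22.8% and 22.1% in the second. TGANTCA was less frequent at distal summits in clusters than over the list, with 8.23% (7.04 to 9.55%) against 11.2% (10.8 to 11.7%) at D0 and 9.48% (8.30 to 10.8%) against 11.8% (11.3 to 12.3%) at W2, but not at W12, with 10.7% (8.71 to 13.0%) against 10.7% (10.2 to 11.1%). Mean GC content was 49.8% in the D0 windows in clusters and 48.4% over the distal D0 list. The part of GC content and of peak width, which sets where a summit falls, in this difference was not tested.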

How the data were processed

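MINT-ChIP lists of H3K27ac and H3K4me1 from sorted mouse EpdSCs at 5 time points and of H3K4me1 from 4 culture conditions were analysed, out of 38 samples in 16 groups. The authors' steps up to pooled alignments on GRCm38/mm10 used Skewer, Bowtie2 2.2.9, Picard and SAMtools 1.9. MACS2 2.1.1 then gave H3K27ac peaks and epic2 (SICER 0.0.36 in the submitters' processing notes) gave H3K4me1 domains. The W12 H3K27ac list carries a q threshold in its name and the other 4 carry none. The lowest score, which is 10 times −log10 q without decimals, was 13 in all 5 deposited lists. Other caller settings are not given in the sources used here. For each interval the deposited H3K27ac and culture lists state a score in whole numbers, a fold over local background (a ratio) and −log10 p. The deposited H3K4me1 lists of skin give a p-value per domain. Every deposited list pools the replicates of its group, and read totals are unknown. Total H3 and 14 barcode files were not used here, and some genes are not reported here.

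Peaks on 21 chromosomes were stitched in each list by the rule given in the results, in Python 3.11 with pandas and numpy, and the function was tested on simulated data. Overlap meant at least 1 bp. A cluster was named by the protein-coding genes of GENCODE M21 (basic set, GRCm38) whose bodies it overlapped, otherwise by the nearest protein-coding start site. H3K27ac width and H3K4me1 coverage in other lists were counted within the cluster's span. For listed genes the width of each list's own cluster is given instead, unless a span is named. The background pileup was taken from the even spacing of fold values, on which between 78.7% and 95.2% of the peaks with a fold under 12 lay within 0.001. Distal meant over 2500 bp from a start site. Shares carry exact 95% Clopper-Pearson intervals. Named in full were the 8 widest clusters of each class (constant, D0-only, lasting gained), the 3 widest of each later list alone, the widest of each list and listed genes inside clusters. The members and gene lists were chosen with earlier results of these data known. Alternatives were other gaps, widths, peak numbers and overlaps, lists of equal length, no peaks near start sites and no X or Y.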

Additional observations from a re-analysis of the deposited data

How the results depend on the processing

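All 12 counts and shares of clusters were recomputed under 12 alternatives, and 95 of 144 values stayed within 1.5 times the main count or within the interval of the main share. No value moved under at least 5 peaks, lists of 29081 peaks, 50% overlap, or no X or Y. Nor did any move under the 3 alternatives chosen after seeing the data. These were no minimum number of peaks, no clusters without H3K4me1 in skin, and a cluster counted as called elsewhere when 10000 bp of its span were covered. Gaps under 5000 bp gave 105, 124, 151, 128 and 35 clusters at D0, W1, W2, W6 and W12, with 23 constant, 18 D0-only, 36 lost and 80 gained at W2 and 5 lasting gained, and 27.8% of D0-only clusters had more H3K4me1 at W2. Gaps under 20000 bp gave 359, 436, 474, 430 and 151 clusters and 103 constant ones. A width of 15000 bp gave 89, 107, 134, 111 and 28 clusters, with 19 constant, 11 D0-only, 28 lost, 73 gained and 4 lasting, and 100% of lasting and 36.4% of D0-only clusters had more H3K4me1 at W2. Without peaks within 2500 bp of a start site there were 74, 107, 110, 97 and 26 clusters, with 13 constant, 15 D0-only, 31 lost, 67 gained and 6 lasting. With 92 clusters per list 31 were constant, 20 D0-only, 41 lost, 41 gained and 9 lasting, and 35.0% of D0-only clusters had more H3K4me1 at W2. Fewer or more clusters follow from the thresholds themselves, and the cause of the changed shares was not tested. No paired analysis was possible because each list pools its replicates, and for the same reason no replicate could be left out. Depth limits the lists, since a shallow list can miss a weak peak that would bridge a gap.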
